A study of Caenorhabditis elegans with 2 samples.

Results

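The 320 peaks described here are autosomal sites of CEH-34 occupancy that lay between head-to-head genes. A peak was taken when its summit, the position of highest signal, fell within 1000 bp upstream of the annotated 5′ end of at least 1 plus-strand and at least 1 minus-strand protein-coding gene, and more than 200 bp from any tRNA, snRNA or snoRNA gene. They were 320 of 1942 autosomal peaks (16.5%) in the thresholded list, which held 2508 peaks in all. The threshold was on the IDR (irreproducible discovery rate), which scores whether a peak holds its rank in both replicates, and the 2508 peaks were the 2508 strongest of 29417 candidates called on both replicates together.

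Occupancy was measured by ChIP-seq on whole late embryos of C. elegans hermaphrodites, collected 3.5 h after synchronisation by bleaching. The strain was OP524, genotype unc-119(tm4063) III; wgIs524, in which an integrated transgene makes CEH-34 with a C-terminal GFP and FLAG tag, and chromatin was precipitated with an antibody against GFP. Both libraries were biological replicates of this 1 group, so no condition was compared with another. Since whole embryos were used, a site occupied in a few cells and one occupied weakly in many cannot be told apart.

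CEH-34 is a homeodomain protein of the sine oculis family, known for specifying the neurons of the pharynx, the feeding organ of the worm. Head-to-head genes share 1 stretch of upstream DNA, so a factor bound there lies in front of both genes at once. In C. elegans the 5′ ends of many messages are removed by trans-splicing, so an annotated 5′ end can lie downstream of the place where transcription starts.

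The sequences of 6 of the 8 strongest peaks show what lay under the summits. Each is the plus strand of the RefSeq WBcel235 assembly (the ce11 build), reaching 50 bp to either side of the pooled summit. Capitals mark, on either strand, the 3 strings of 7 bases that led a ranking given with the other strings, and an 8-base string, CATACACT, that was picked out after these sequences had been read.
K01G5.10/tasp-1 (chrIII:10759199-10759299): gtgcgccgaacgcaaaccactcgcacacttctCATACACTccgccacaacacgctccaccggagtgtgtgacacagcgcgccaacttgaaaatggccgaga
rpl-15/K11H12.8 (chrIV:654865-654965): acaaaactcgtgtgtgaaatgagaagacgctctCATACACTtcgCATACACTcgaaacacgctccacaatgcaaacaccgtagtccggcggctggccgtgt
ecps-1/atx-2 (chrIII:10461277-10461377): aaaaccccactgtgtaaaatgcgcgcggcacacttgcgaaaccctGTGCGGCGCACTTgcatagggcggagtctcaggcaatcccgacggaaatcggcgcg
ears-2/uncp-18 (chrIV:390448-390548): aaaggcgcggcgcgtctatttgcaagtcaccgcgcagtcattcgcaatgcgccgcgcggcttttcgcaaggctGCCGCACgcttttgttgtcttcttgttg
rpl-20/Y17G9B.5 (chrIV:4750014-4750114): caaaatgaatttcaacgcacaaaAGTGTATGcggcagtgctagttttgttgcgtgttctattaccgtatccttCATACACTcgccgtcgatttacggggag
W03C9.5/mex-1 (chrII:11967703-11967803): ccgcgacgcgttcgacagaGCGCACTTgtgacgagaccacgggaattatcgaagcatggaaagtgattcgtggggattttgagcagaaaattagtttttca

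The strongest peak, between K01G5.10 and tasp-1, had a signal of 415.7 in replicate 1, 406.9 in replicate 2 and 818.4 in the pooled list, where signal is the authors' own height for a peak. Its summit lay 58 bp upstream of tasp-1 and 727 bp upstream of K01G5.10, and it was the fourth strongest autosomal peak. The peak between rpl-15, a protein of the large ribosomal subunit, and K11H12.8 had signals of 349.3 and 311.7 in the replicates and 658.2 pooled. Its summit was nearer the middle, 339 bp from rpl-15 and 475 bp from K11H12.8. The peak between his-67 and his-68, both histone genes, followed with 224.0, 276.5 and 490.3. These histone genes have near-identical copies, and how the authors placed reads that match several copies is not given in the sources used here, so the histone values are uncertain.

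The peak 62 bp in front of atx-2, the worm ataxin-2 and an RNA-binding protein, had replicate signals of 228.6 and 225.2 and a pooled signal of 458.0. A second summit in the same promoter, 194 bp from ecps-1, reached 173.3. The gap between ears-2, a glutamyl-tRNA synthetase, and uncp-18 was 92 bp, among the shortest, and its peak (226.9, 213.8 and 443.9) covered both 5′ ends. The peak between rpl-20 and Y17G9B.5 had signals of 217.0, 185.2 and 402.3. In the 6 strongest peaks the replicates differed by at most 1.23 times, and the peaks ranked between 4 and 30 among the candidates of replicate 1 and between 5 and 53 among those of replicate 2.

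The rest of the 15 strongest peaks were weaker and were also found in both replicates. The peak between mlcd-1 and idhg-1, a subunit gene of isocitrate dehydrogenase, had 168.5 in replicate 1, 177.0 in replicate 2 and 351.0 pooled, 42 bp from idhg-1. The peak between F29B9.11 and jmjd-1.2, a histone demethylase gene, had 175.9, 171.2 and 344.9. The peak between nrde-2, a gene of nuclear RNA interference, and atad-3, of the mitochondrial inner membrane, had 143.5, 184.5 and 332.1 and lay far from both, at 926 and 427 bp. The remaining ones are given with the gene groups they belong to.

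CATACACT or its reverse complement stood within 50 bp of the summit in 4 of the 15 strongest divergent peaks and in 0 of the other 305. The 4 were K01G5.10/tasp-1, rpl-15/K11H12.8, rpl-20/Y17G9B.5 and ifet-1/rps-1 (342.2), so 3 of them stood beside a ribosomal protein gene. It stood in 6 of 622 one-direction peaks (0.965%), in 2 of 766 divergent candidates below the threshold (0.261%) and in 0.208% of autosomal tiles of the same length. Since it was chosen from the sequences it is counted in, no test was made.

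Both replicates contained nearly all of these peaks. A candidate summit lay within 100 bp in both replicates for 311 of 320 peaks (97.2%), in replicate 1 alone for 4, in replicate 2 alone for 4 and in neither for 1, the weaker of 2 summits between kgb-1 and T07A9.12 (pooled signal 84.2). The signal ran from 19.3 to 415.7 in replicate 1, with a median of 58.9, and from 20 to 406.9 in replicate 2, with a median of 61.6. Across the 311 peaks the log2 signals of the replicates had a Pearson correlation of 0.760 and a Spearman correlation of 0.698, against 0.728 and 0.643 over 593 one-direction peaks. These are descriptions over peaks that share the same pair of libraries. Replicate summits were a median of 22 bp apart, and 256 of 311 (82.3%) were within 50 bp.

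**Figure D1:**
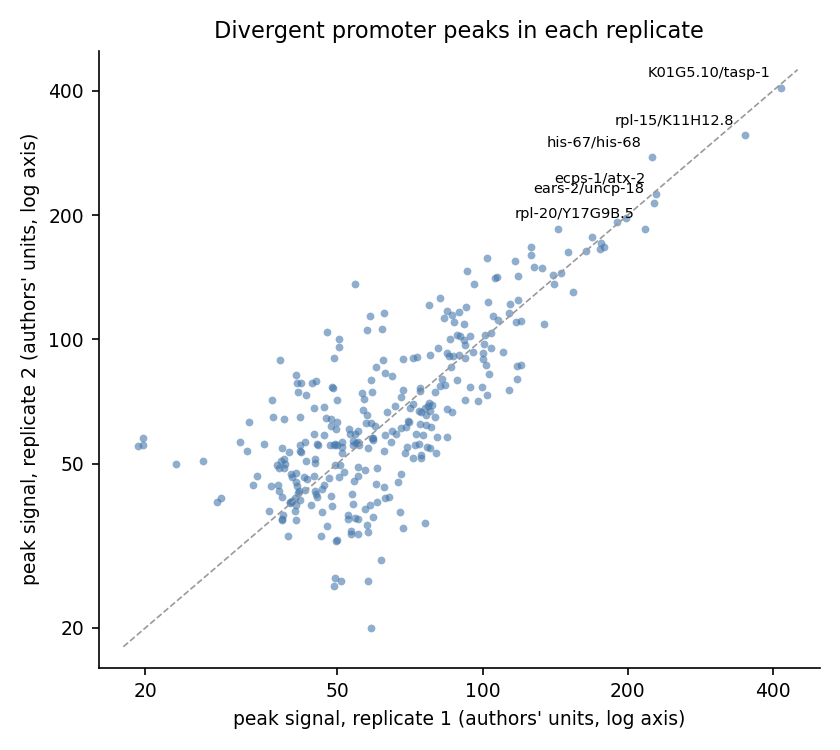
Signal of each divergent peak in replicate 1 (horizontal) and replicate 2 (vertical), in the authors' units on log axes, for the 311 peaks found in both; the dashed line marks equal values and labels name the 6 strongest pairs. The 6 named pairs lie between 185.2 and 415.7 near the line, and the SD of the log2 ratio of the replicates was 0.397 in the stronger 50% and 0.529 in the weaker 50%.

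The rank of these peaks in each replicate is tied to how they were chosen, since the pooled list was made from both replicates, so it is given as a description with no test. Of 320, 241 (75.3%) were among the 2508 strongest candidates of both replicates, against 419 of 622 peaks (67.4%) in one-direction promoters, those within 1000 bp upstream of genes on 1 strand. The odds ratio of these shares was 1.48, and it was 1.21 with a 500 bp promoter and 1.32 when any overlap of intervals counted as shared. Of the 80 peaks with the highest pooled signal all 80 met this mark, and of the 80 with the lowest 22 did.

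The pooled signal of the 320 peaks had a median of 119.7, with quartiles of 92.2 and 170.7 and a range of 76.5 to 818.4. The median of one-direction peaks was 114.4 and their highest was 1522.0. Signal above the joint median of 115.8 was found in 172 of 320 divergent peaks (53.8%) and in 299 of 622 one-direction peaks (48.1%). Both classes were cut at a signal of 76.5 by the threshold, so these values describe the peaks above it and do not show that the classes have like signals. At the weak end stood ubq-2/frg-1 (38.4 and 36.6 in the replicates, 76.6 pooled), fbxb-88/tbck-1 (42.3 in replicate 1, no candidate in replicate 2, 76.6 pooled) and R186.8/lin-46 (38.5, 37.6 and 76.5).

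Candidates in divergent promoters passed the threshold more often than those in one-direction promoters, which here means that more of them had a pooled signal of at least 76.5. Of 1086 divergent candidates 320 passed (29.5%, 95% Wilson interval 26.8 to 32.2), of 5973 one-direction candidates 622 passed (10.4%, 9.66 to 11.2), and of all 24008 autosomal candidates 8.09% passed. The odds ratio of divergent over one-direction candidates was 3.59 (95% interval 3.07 to 4.20; two-sided Fisher's exact test, adjusted p = 5.24e-53). The ratio was above 1 on each autosome, at 3.68 on I, 2.71 on II, 3.28 on III, 4.39 on IV and 4.25 on V. Of the 4 classes of position only candidates within 200 bp of a structural RNA gene passed more often, at 36.0% of 492. All these tests count peaks from 2 libraries, so they describe the deposited lists and not variation between animals.

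The difference was seen in each bin of distance to a gene. A divergent summit has a gene on either side and so tends to be nearer to one. Among candidates within 100 bp of the nearer 5′ end, 92 of 321 divergent (28.7%) and 10.3% of 848 one-direction candidates passed. Above 100 and up to 200 bp the shares were 36.4% and 14.8%, from there to 300 bp they were 31.2% and 13.9%, and beyond that 19.7% and 8.67%. Among summits with at least 45% GC within 50 bp, a limit chosen after seeing the data, 51.4% of divergent and 21% of one-direction candidates passed (odds ratio 3.98). Outside gene bodies, also chosen after seeing the data, the shares were 32.3% and 14.3% (odds ratio 2.86).

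**Figure D2:**
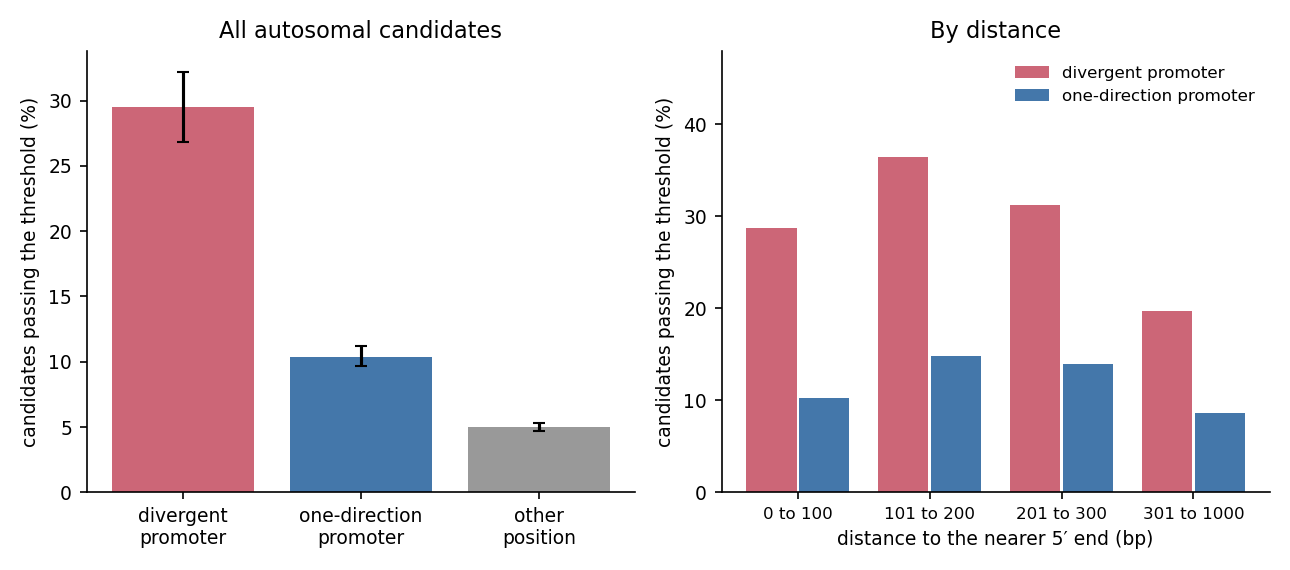
Percent of autosomal candidate peaks that passed the IDR threshold, for 3 classes of position with 95% Wilson intervals (left) and for divergent and one-direction promoters in 4 bins of distance to the nearer 5′ end (right). The divergent bar is at 29.5% against 10.4%, and is the higher one in all 4 bins.

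Counted by DNA rather than by candidates, the difference was larger. The autosomes held 2847 stretches of divergent promoter, 1.61 Mb in all, of which 312 (11%) held a peak. Their density was 199.0 peaks per Mb (exact Poisson 95% interval 177.8 to 222.0). One-direction promoters held 35.7 per Mb (32.9 to 38.6) over 17.4 Mb, with 590 of 19291 stretches occupied (3.06%), and the autosomes as a whole held 23.5 per Mb. These densities depend on the promoter length: divergent and one-direction promoters held 414.6 and 55.3 per Mb at 500 bp, and 94.9 and 26.3 at 2000 bp. The DNA of the classes was matched neither for distance to a 5′ end nor for gene bodies, and their part in the densities was not tested.

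The 320 peaks lay between 311 pairs of nearest genes, and 9 pairs held 2 peaks each. The gap between the 5′ ends had a median of 526.5 bp and ran from 12 bp, between F32D8.14 and F32D8.5 (signal 84.8), to 1678 bp, between Y39B6A.69 and tsp-13 (118.8). Short gaps held the larger share of passing candidates: 36 of 99 (36.4%) up to 250 bp, 37.6% of 298 from there to 500 bp, 133 of 452 (29.4%) from there to 1000 bp and 39 of 237 (16.5%) above. The median signal ran the other way, at 102.1, 118.6, 122.4 and 127.2. The peak with the farthest permitted gene, R12C12.6/ran-5, had that gene 1000 bp away and a signal of 101.2. The first one beyond the limit, between cdc-14 and ttc-4, had 1006 bp and 109.1. A stronger summit of that same pair (146.1) was within the limit, with ttc-4 997 bp away, so the pair is among those of the 320 peaks.

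The nearer 5′ end was a median of 161.5 bp from the summit and the farther 368.5 bp, and the nearer was a median of 165.5 bp away in the divergent candidates that did not pass. The summits were spread over both sides, with the minus-strand gene nearer in 150 peaks, the plus-strand gene in 169 and equal distances in 1. A 5′ end lay within 200 bp in 214 of 320 peaks (66.9%) and in 442 of 766 divergent candidates that did not pass (57.7%). The odds ratio was 1.48 (95% interval 1.12 to 1.97, two-sided Fisher's exact test, adjusted p = 0.0183). Both groups met the same position rule, but the gap between the 5′ ends had a median of 526.5 bp in the 320 peaks and 666.0 bp in the others. The part of gap width in this odds ratio was not tested. Its direction depended on the distance chosen, since the odds ratio within 100 bp was 0.946. For the stronger 50% of thresholded peaks it was 0.974 (103 of 172 against 553 of 914). There the weaker thresholded peaks were counted with the other candidates, so that value is not a comparison with the 766. The call was also lost with a 500 bp promoter (1.14) and with replicate 1 alone (1.34). The summit was in the middle 50% of the gap in 209 of 320 peaks (65.3%) and in 456 of 766 other candidates (59.5%), which did not pass the test (odds ratio 1.28, 95% interval 0.968 to 1.70; two-sided Fisher's exact test, adjusted p = 0.133).

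The called interval, a median of 450 bp wide, covered both 5′ ends in 53 peaks (16.6%), 1 in 133 (41.6%) and neither in 134 (41.9%). Summits were in an exon of any annotated gene, coding or not, in 48 peaks (15%). They were in an intron of a protein-coding gene in 10 (3.12%) and in neither in 262 (81.9%). Of the 320 summits 289 lay outside protein-coding gene bodies, so most of the 48 were in exons of genes of other kinds. The strongest exonic summit named here, 342.2, lay between ifet-1, a translational repressor, and rps-1, and an intronic one of 287.9 lay between the centrosome gene spd-5 and the nucleoporin gene npp-6. Peaks were found on every autosome, 79 on I, 50 on II, 72 on III, 61 on IV and 58 on V. The central 50% of the autosomes, where gene density is high, held 199 of 320 divergent (62.2%) and 392 of 622 one-direction peaks (63.0%), a difference that did not pass the test (odds ratio 0.965, two-sided Fisher's exact test, adjusted p = 0.831).

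**Figure D3:**
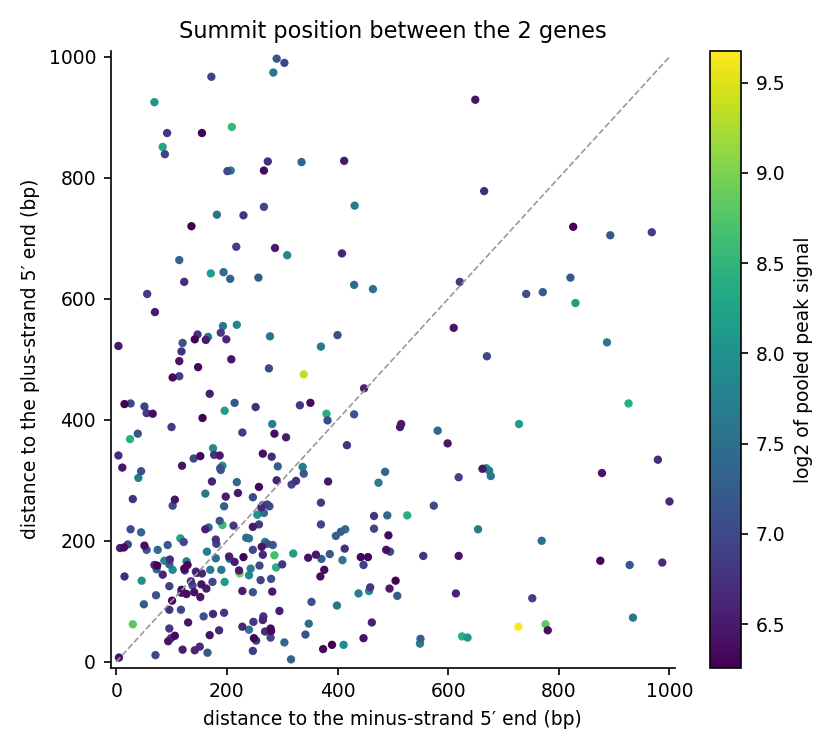
Distance in bp from each of the 320 summits to the nearest minus-strand (horizontal) and plus-strand (vertical) 5′ end, coloured by log2 of the pooled signal; the dashed line marks equal distances. 178 of the 320 summits were within 400 bp of both genes, and the strongest peak sits 58 bp from its plus-strand gene.

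Genes of basic cell function were frequent on either side of the peaks. Of 17242 autosomal protein-coding genes 646 (3.75%) had 1 of the 320 peaks within 1000 bp upstream, and of the 5431 that stand beside a divergent promoter 11.9% did. The lists below are described by their counts against that 11.9%, with no test, because they were drawn up with earlier results of these data known.

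Ribosomal protein genes had the largest share, with 33 of the 52 that stand beside a divergent promoter (63.5%), out of 79 in all. Beside rpl-15 and rpl-20, rpl-12 shared a peak with lin-54 (178.2 and 167.3 in the replicates, 342.9 pooled), 25 bp from rpl-12. The peak between rps-1 and ifet-1 had 175.5, 165.1 and 342.2, and that between rps-19 and hsr-9, a 53BP1 homologue of the DNA damage response, had 163.5, 163.6 and 330.4. The 30 peaks concerned had a median signal of 120.9, against 119.7 over the other 290. The ribosomal protein gene was the nearer of the pair in 13 of 30. Among the 30 were rps-10/rpl-24.1, rpl-39/rps-30 and rps-14/rpl-36, which have a ribosomal protein gene on both sides, so for them the outcome was set by construction. In the stronger 50% of thresholded peaks, 18 ribosomal protein genes had a peak. That setting has fewer peaks by construction, with 170 divergent stretches occupied against 312, and the share over all genes was not computed for it.

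Other parts of the translation machinery had smaller shares. Of 24 translation factor genes beside a divergent promoter 10 held a peak (41.7%). The strongest was iff-2, an eIF5A gene, with 150.5 and 162.7 in the replicates and 307.4 pooled, and eif-3.E (89.8, 101.8 and 189.8) and eef-1A.1, elongation factor 1 alpha (83.5, 77.6 and 154.8), also held one. Mitochondrial ribosomal proteins were at 8 of 30 (26.7%), and their strongest peak, at mrpl-37, reached 117.5, below the median of the 320. The promoter shared by fib-1, the nucleolar protein fibrillarin, and mut-15, a gene of small RNA silencing, held 2 peaks of 290.4 and 160.7.

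Chromatin regulators were at 11 of 19 (57.9%), and the peaks of those named here follow. lin-35 encodes the worm retinoblastoma protein and shared a peak with vps-51, of the GARP tethering complex, at 198.0, 197.2 and 392.6. lin-54 encodes the DNA-binding subunit of the DREAM complex, in which LIN-35 acts. lin-53, which encodes a histone-binding protein, had a peak as well (100.9, 97.4 and 198.0). efl-1, an E2F gene, had 59.3, 57.0 and 123.2. The methyltransferase gene set-21 shared a peak with rpl-7A (114.2, 121.8 and 234.6), and set-16, of the MLL family, one with drr-2 (118.1, 86.3 and 206.8). With the stronger 50% of peaks the count was 7 genes, and with a 2000 bp promoter it was 14. The number of divergent stretches was 3970 at 2000 bp against 2847 at 1000 bp. The share over all genes was not computed for these settings.

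Chaperones were at 18 of 34 (52.9%). hsp-60, the mitochondrial chaperonin, had 125.8, 160.3 and 284.0, and dnj-29 had 134.0, 109.2 and 243.1. hsp-90, the cytosolic chaperone also known as daf-21, had 107.8, 111.3 and 219.0, from a summit in an annotated intron. cct-7, a subunit of the ring that folds actin and tubulin, had a pooled signal of 197.5. The heat-inducible pair hsp-16.2 and hsp-16.41 shared a peak of 57.5, 65.4 and 121.8, which covered both 5′ ends; these genes have near-identical copies, so that value is uncertain.

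Nuclear pore and transport genes were at 12 of 25 (48%), among them npp-6 (154.2, 130.4 and 287.9) and the importin alpha gene ima-1 (81.5, 126.1 and 206.4). RNA polymerase and mediator genes were at 9 of 22 (40.9%), led by mdt-19 (92.3, 119.6 and 204.3). Cell cycle genes were at 14 of 41 (34.1%), and 1 peak, between lin-61 and the kinetochore kinase gene bub-1 (120.4, 86.7 and 203.3), joined this list to that of chromatin. Splicing genes were at 10 of 32 (31.2%), led by the Sm protein gene snr-1 (132.8, 149.2 and 278.6) and prp-19 (116.7, 155.1 and 273.8).

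Energy and protein turnover were nearer to the background. Respiratory chain genes were at 6 of 22 (27.3%), with cox-6B, of cytochrome c oxidase, at 95.9, 136.2 and 233.6. V-ATPase and vesicle traffic genes were at 13 of 48 (27.1%), including rab-7, the late endosome GTPase, whose promoter shared the W03C9.5/mex-1 peak (190.3, 192.3 and 383.0); mex-1 encodes an RNA-binding protein of the early embryo. Proteasome genes were at 5 of 24 (20.8%) and ubiquitin pathway genes at 4 of 21 (19%), and the 95% Wilson intervals of both took in 11.9%.

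Several lists of regulated genes were below the background. Serpentine receptors, the chemosensory receptor family of neurons, were at 5 of 285 (1.75%), transcription factors at 4 of 65 (6.15%) and collagens of the cuticle at 3 of 41 (7.32%); the 95% Wilson intervals of the last pair took in 11.9%. In the strongest of these peaks the other gene was nearer to the summit: sre-1 (102.3, 157.5 and 267.5) was 925 bp away and its partner B0495.9 69 bp. The count of serpentine receptors was 3 with a 500 bp promoter (1825 divergent stretches) and 9 with 2000 bp (3970 stretches). The 11.9% holds for 1000 bp only, and the share over all genes was not computed for the other lengths. The 4 transcription factor genes were nhr-59 (209.9 pooled), nhr-142 (129.9), the homeobox gene ceh-38 (49.0, 76.1 and 124.8) and zip-4 (87.9). Of pan-neuronal genes 2 of 4 held a peak, nsf-1 (110.4, 93.4 and 205.5) and the beta-tubulin gene tbb-1 (42.6, 46.5 and 90.9), and of body wall muscle genes 1 of 2, pat-10, a troponin C gene (39.7, 53.2 and 91.1); so few genes of these lists stand beside a divergent promoter that their shares say little.

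Histone genes were at 11 of 65 (16.9%), although 65 of the 69 stand beside a divergent promoter, and the 95% Wilson interval took in 11.9%. Of the 320 peaks 169 had no list gene as a nearest neighbour, 125 had 1 and 26 had 2. In 10 peaks both neighbours came from 1 list: 5 histone pairs, 3 pairs of ribosomal protein genes (rps-10/rpl-24.1, rpl-39/rps-30 and rps-14/rpl-36), the SR splicing factor pair rsp-2/rsp-1 and hsp-16.2/hsp-16.41. The share of such pairs over all divergent promoters was not computed, so this count does not set the peaks apart from promoters without one. When peaks next to any list gene were left out, an alternative chosen after seeing the data, divergent candidates still passed more often (odds ratio 2.85).

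**Figure D4:**
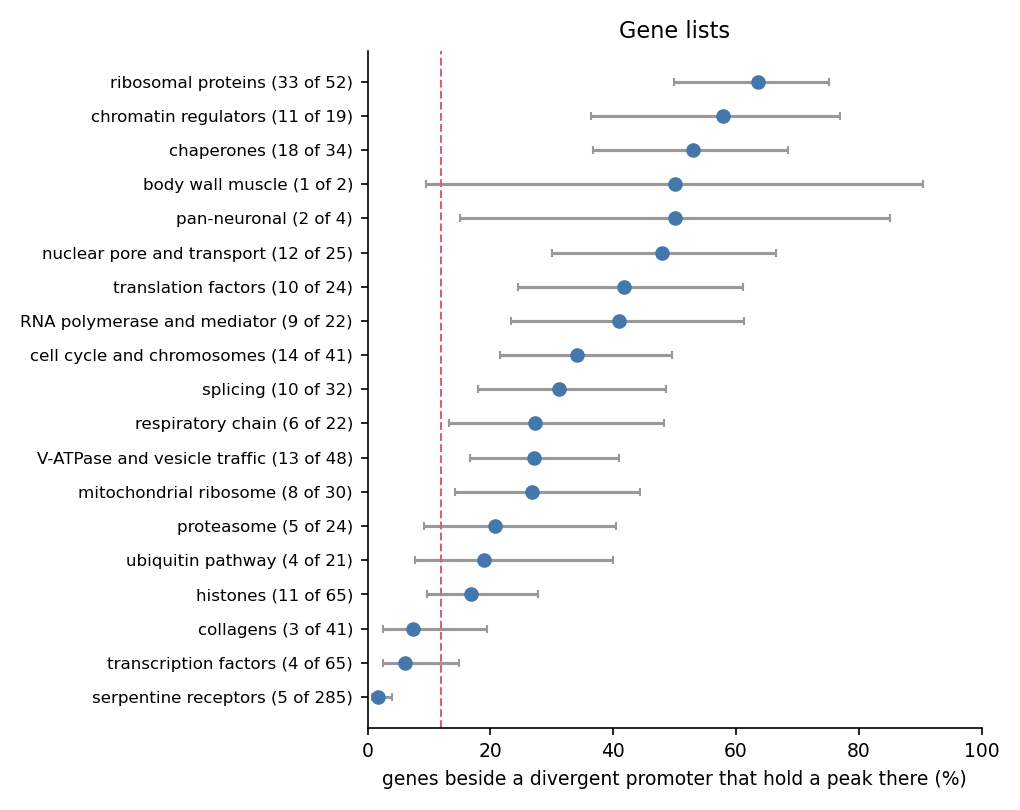
Share of the genes of each list, among those beside a divergent promoter, that had 1 of the 320 peaks within 1000 bp upstream, in percent with 95% Wilson intervals for counting error; counts are in brackets and the dashed line is the 11.9% of all such genes. Ribosomal proteins are the highest at 63.5% and serpentine receptors the lowest at 1.75%.

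Base composition at the summit was similar to that of one-direction peaks, and the surroundings were not. The mean GC content of 21 bp windows was 51.2% at the summit and fell to 31.4% at 140 bp to the left and 30.2% at 140 bp to the right. One-direction peaks had 51.9%, 37.2% and 37.9% at the same places. Divergent candidates below the threshold rose only to 40.4% at the summit, with 34.2% and 35.7% beside it. Within 50 bp of the summit, GC above the joint median of 48.5% was found in 147 of 320 divergent peaks (45.9%) and 319 of 622 one-direction peaks (51.3%), a difference that did not pass the test (odds ratio 0.807, two-sided Fisher's exact test, adjusted p = 0.152). Within 100 bp, which takes in the flanks, the shares were 35.3% and 57.2% (odds ratio 0.408, two-sided Fisher's exact test, adjusted p = 7.05e-10). Within 25 bp the odds ratio was 1.20. The summit lay outside protein-coding gene bodies in 289 of 320 divergent peaks, against 454 of 622 one-direction peaks. GC content was not compared on those alone, so the part of gene bodies in the difference within 100 bp was not tested.

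**Figure D5:**
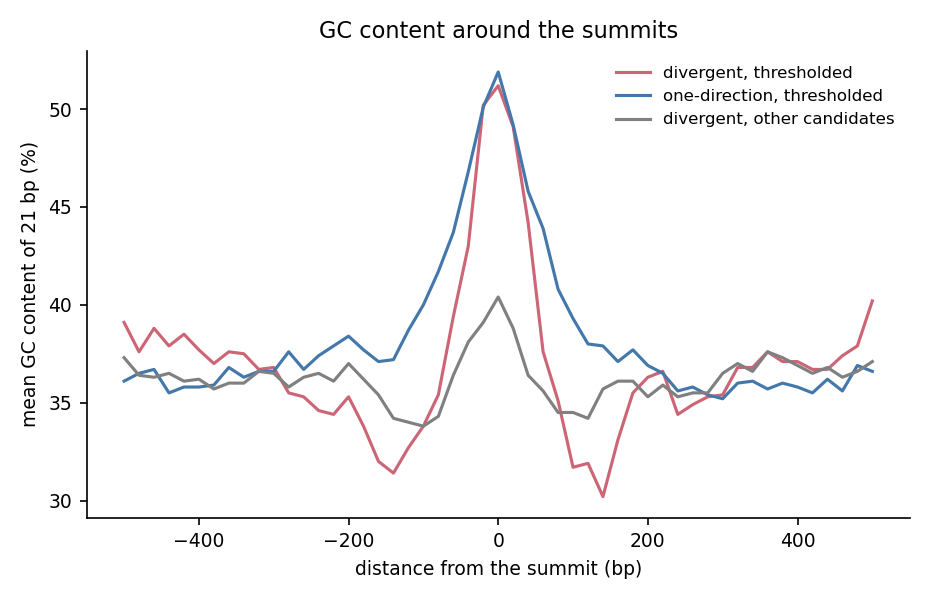
Mean GC content in percent of 21 bp windows against distance in bp from the summit, for divergent peaks, one-direction peaks and divergent candidates that did not pass. The divergent peaks reach 51.2% at the centre and drop to 31.4% and 30.2% at 140 bp on either side, below both other groups.

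Of 8 strings searched on both strands within 50 bp of the summit, the GA repeat GAGAGA (reverse complement TCTCTC) gave the lowest p between promoter classes. It stood in 52 of 320 divergent peaks (16.2%, 95% Wilson interval 12.6 to 20.7) and in 197 of 622 one-direction peaks (31.7%). The odds ratio was 0.419 (95% interval 0.291 to 0.595; two-sided Fisher's exact test, adjusted p = 1.82e-06). The share was 11.2% in divergent candidates below the threshold, 5.31% and 4.06% at 300 bp to the left and right, and 5.24% of autosomal tiles of the same length. It was thus above the genome's share in both classes, and in the strongest 25% of each class it was in 15 of 80 divergent peaks and 54 of 155 one-direction peaks. 4 peaks that hold it are shown with it in capitals.
nhr-59/fbxa-137 (chrV:2278653-2278753): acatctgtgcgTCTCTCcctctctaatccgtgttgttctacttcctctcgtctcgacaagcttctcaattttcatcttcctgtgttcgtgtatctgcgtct
drr-2/set-16 (chrIII:13643684-13643784): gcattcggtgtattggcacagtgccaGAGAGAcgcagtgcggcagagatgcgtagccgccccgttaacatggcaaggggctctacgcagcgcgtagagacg
apb-1/mdt-19 (chrIII:2597191-2597291): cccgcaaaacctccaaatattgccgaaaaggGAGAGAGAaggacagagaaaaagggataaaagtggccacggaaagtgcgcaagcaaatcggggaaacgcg
his-31/his-32 (chrIV:8334103-8334203): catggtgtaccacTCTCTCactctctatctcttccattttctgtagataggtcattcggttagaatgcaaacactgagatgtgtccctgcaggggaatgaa

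The sine oculis core TGATAC (reverse complement GTATCA), the site known for homeodomain proteins of this family, was rare. It stood in 4 of 320 divergent peaks (1.25%, 95% Wilson interval 0.487 to 3.17) and 18 of 622 one-direction peaks (2.89%), a difference that did not pass the test (odds ratio 0.425, two-sided Fisher's exact test, adjusted p = 0.340). The core was in 2.35% of the divergent candidates that did not pass, in 2.50% and 3.75% of the windows 300 bp to either side, and in 3.30% of autosomal tiles. Its share at the summits was thus no higher than in the genome. The 4 were rpl-12/lin-54 (342.9), ska-3/rps-12 (102.7 and 123.0 in the replicates, 225.5 pooled), pak-2/C45B11.9 (192.2 pooled) and C37A2.7/pqn-20 (61.7, 29.2 and 90.0). The first 3 are shown with the core in capitals.
rpl-12/lin-54 (chrIV:13240626-13240726): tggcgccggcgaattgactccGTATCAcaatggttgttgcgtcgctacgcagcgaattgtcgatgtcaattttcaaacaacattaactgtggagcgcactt
ska-3/rps-12 (chrIII:5679082-5679182): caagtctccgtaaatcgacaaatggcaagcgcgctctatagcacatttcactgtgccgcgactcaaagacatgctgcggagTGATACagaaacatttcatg
pak-2/C45B11.9 (chrV:11039749-11039849): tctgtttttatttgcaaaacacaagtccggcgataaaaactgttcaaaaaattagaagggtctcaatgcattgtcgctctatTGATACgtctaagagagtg

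The splice acceptor string TTTCAG (reverse complement CTGAAA) stood in 28 of 320 divergent peaks (8.75%) and 26 of 622 one-direction peaks (4.18%), an odds ratio of 2.20 (95% interval 1.22 to 3.98; two-sided Fisher's exact test, adjusted p = 0.0285). Both shares were below the 20.4% of autosomal tiles and the 16.2% of divergent candidates that did not pass, and the windows 300 bp away held it in 28.4% and 30.9%. The call was lost in 6 of 11 alternatives, among them replicate 1 alone (1.57) and summits outside gene bodies (1.95). The string is AT-rich, and the GC content around the summits also differed between the classes; its part in this result was not tested. A histone pair and nmad-1/hach-1 (107.1, 141.3 and 247.0) show it in capitals.
his-61/his-62 (chrIV:7486363-7486463): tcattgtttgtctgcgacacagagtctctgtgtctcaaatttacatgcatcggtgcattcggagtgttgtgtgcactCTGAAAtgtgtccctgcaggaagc
nmad-1/hach-1 (chrIII:5555076-5555176): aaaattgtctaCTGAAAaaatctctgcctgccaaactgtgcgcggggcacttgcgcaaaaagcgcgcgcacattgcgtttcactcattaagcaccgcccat

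The other 5 strings did not pass the test between the classes. TATAAA stood in 17 divergent peaks (5.31%) against 3.86% of one-direction peaks, and in 2, 2, 4 and 9 of 80 when the peaks were split in 4 by signal, from the strongest down. GGGCGG stood in 39 (12.2%) against 9.49%, and in 16, 9, 8 and 6 of 80 in the same split, with 4.31% in divergent candidates below the threshold and 1.69% of tiles. TGCGTCTC stood in 22 (6.88%) against 10.3%, CAGCTG in 13 (4.06%) against 4.18%, and TCAGGTT in 1 peak against 6. None of the 8 strings was found in 176 of the 320 peaks (55.0%), and 29 held more than 1.

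Ranking all 7-base strings by how much more often they stood in the 320 peaks than in the 766 other divergent candidates put GC-rich strings first. GCCGCAC stood in 31 peaks (9.69%), against 1.96% of those candidates, 3.70% of one-direction peaks and 0.472% of tiles. AGTGCGC stood in 32 (10%), against 2.35%, 5.79% and 0.348%, and AAGTGCG, which overlaps it by 6 bases, in 32 (10%), against 2.48%, 5.31% and 0.612%. At least 1 of the 3 was in 63 divergent peaks (19.7%, 95% Wilson interval 15.7 to 24.4), in 64 of 622 one-direction peaks (10.3%) and in 38 of the 766 (4.96%). In the same split by signal they stood in 22, 18, 14 and 9 of 80, and in 6 of the 15 strongest, where GAGAGA stood in 1. Because the strings were picked from these peaks the counts are a description with no test, and the median GC content of the groups differed as well, at 48.5% in the 320 peaks and 38.6% in the 766.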

How the data were processed

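CEH-34 ChIP-seq was measured in 2 biological replicates of 1 group. Per the labels, each came from a separate sample of whole embryos; depth of reads was not analysed here, and the error behind a single peak is unknown. The authors deposited peak lists with a signal value per peak, set per list, and the −log10 of a q-value, which ran from 2.28 to 2.95 in the 320 peaks and entered no test. The aligner and peak caller were not given in the sources used here. Lists for ce10 and the control experiment named in the labels were not used here.

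Gene ends came from Ensembl release 115 and sequence from RefSeq, both of WBcel235, which has the ce11 coordinates. Candidates are the peaks of the pooled list, and a peak was shared when summits lay within 100 bp. Where a replicate was left out, candidates were those of the other replicate alone. Its 2508 strongest then stood in for the thresholded peaks, with no IDR threshold. Peak counts were compared by two-sided Fisher's exact tests (scipy 1.17.1), adjusted by Benjamini-Hochberg over 7 comparisons of peaks or over 8 strings, at 0.05. For signal and for rank in each replicate, which the choice of peaks fixes in part, the text gives no test. Alternatives chosen after seeing the data were adjusted by multiplying p by the same number. The test was checked on simulated counts. Wilson and Poisson intervals cover counting error only, and peaks of 1 promoter are not independent. Tiles are consecutive windows of the autosomes, as long as the windows of 50 bp either side of a summit.

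The peaks, the 19 gene lists, the strings and the tests were chosen with earlier results of these data known. The genes named are those at the 15 strongest and 3 weakest peaks, up to 4 strongest of each list, and up to 5 peaks with TGATAC; lin-53, efl-1, cct-7, lin-61, fib-1, mut-15, the pairs from 1 list, those with the shortest or longest gap, those at the limit of the rule, kgb-1/T07A9.12 and the other peaks printed for a string were named after their values were seen.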

Additional observations from a re-analysis of the deposited data

How the results depend on the processing

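With 2 libraries, unknown read depth and no second group, the tests describe peak lists. Annotated 5′ ends are not measured transcription starts, and a summit near both genes cannot be given to 1 of them. No paired analysis was possible because there was 1 group.

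The odds ratio of candidates passing stayed past the threshold in all 12 alternatives (2.85 to 3.98), and that of GAGAGA in all 11 (0.421 to 0.540). In the alternatives without a replicate, passing meant being among the 2508 strongest candidates of the other replicate, not passing the IDR threshold. With a 500 bp promoter, the odds ratio for peaks among the strongest of both replicates fell to 1.21 and that for summits near a 5′ end to 1.14, which was no longer past the threshold; with any overlap of intervals the first was 1.32. The ratio near a 5′ end reversed to 0.946 within 100 bp, and ran from 1.34 to 1.61 on leaving out a replicate. It was 0.974 in the stronger 50% of peaks, where the weaker thresholded peaks were counted with the other candidates. The middle of the gap reversed to 0.944 with a 2000 bp promoter. The central 50% of the autosomes reversed to 1.07 at 2000 bp and 1.04 in the stronger 50%, and ran from 0.75 to 1.09 without a replicate. GC content reversed to 1.20 within 25 bp and passed at 0.408 within 100 bp. TTTCAG was no longer past the threshold at 1.58 (2000 bp), 2.05 (merged intervals), 2.48 (within 25 bp), 1.95 (outside gene bodies) and 1.82 (summits within 200 bp of a 5′ end, which with the previous one was chosen after seeing the data), and ran from 1.57 to 2.26 without a replicate. Occupied divergent stretches went from 11% to 5.97% in the stronger 50%, which has fewer peaks by construction. Among strings that did not pass, CAGCTG reversed to 1.58 (500 bp), 1.14 (2000 bp), 1.01 (500 bp from structural RNA genes), 1.44 (stronger 50%) and 1.02 (merged). TATAAA reversed to 0.639 (stronger 50%) and 0.948 (without replicate 2), and kept its direction at 1.13 without replicate 1. GGGCGG reversed to 0.941 (within 25 bp). TGATAC passed at 0.300 with 2000 bp and TGCGTCTC at 0.553 within 100 bp. Except where stated, the cause was not tested.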
